A study of Homo sapiens with 4 samples.

Results

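ABC transporter genes encode the ATP-binding cassette proteins, and they were taken here as all probe sets annotated to 1 gene whose symbol is ABC followed by a letter from A to G and a number. The pseudogene ABCC13, which has a symbol of this form, was left out. This gave 41 genes with 92 probe sets, of 19775 genes and 54675 probe sets in all. The samples were Panc1 cells, an established human pancreatic cancer cell line, with 1 Affymetrix array for each of 4 conditions: no treatment, romidepsin, tamoxifen, and romidepsin with tamoxifen (the combination). Treatment lasted 24 hours; the labels give neither the doses nor the solvent. All 4 groups were grown in the same medium and come from 1 cell line. With 1 array per condition there were no replicates, so no test was made and each fold describes a pair of arrays. In RNA from whole cultures, fewer cells with a transcript and less transcript per cell cannot be told apart.

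ABC proteins couple the hydrolysis of ATP to movement of a substrate across a membrane. Members of the A and G subfamilies mostly carry sterols and phospholipids, while ABCB1, several C members and ABCG2 export drugs and conjugated anions and can make cells resistant to chemotherapy. Most D members bring fatty acyl-CoA into peroxisomes, several B members work in mitochondria, and the E and F members have no membrane domain and act on ribosomes. Romidepsin inhibits histone deacetylases and is itself a known substrate of the ABCB1 protein. Tamoxifen modulates the estrogen receptor, blocking or activating it depending on the tissue. The comparisons give differences between single arrays with and without each drug, in the absence and in the presence of the other.

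MAS5 signals are intensities on a linear scale. A floor of 66.4, the median signal over the non-control probe sets of all arrays, replaced any lower value. A comparison counts as measured for a gene when either array exceeds the floor, and a rise or fall means floored signals at least 2-fold apart. A fold against an array at the floor is a lower bound. Across the series the only spread that could be seen was technical: where a gene had 2 probe sets above the floor, their log2 folds differed by a median between 0.21 and 0.29 in the 5 comparisons. The actin control's 3′ to 5′ ratio, which grows as RNA breaks down, lay between 1.18 and 1.39 on the first 3 arrays and was 1.73 on the combination array; its part in the results was not tested. Of 6 epithelial markers 4 or 5 lay above the floor on each array, KRT8 and KRT18 among them, while the duct keratin KRT19 was below it on all 4. The 2 immune markers with a probe set lay below it on all 4 arrays, as did the 4 endocrine markers except CHGA on the romidepsin array, at 81.4. Of 3 fibroblast markers COL1A1 was between 6365 and 9773, DCN between 67.0 and 91.6 and COL3A1 below the floor. Of 3 endothelial markers PECAM1 was between 110.0 and 136, VWF passed the floor on the arrays with romidepsin, at 98.3 and 73.6, and CDH5 on none. Of the 2 acinar markers with a probe set CPA1 was below the floor, and CELA3A read 132, 79.8, 89.2 and 47.2 on the untreated, romidepsin, tamoxifen and combination arrays. The part of these markers in the results was not tested.

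Of the 41 genes, 21 lay above the floor on all 4 arrays, 7 on some of them and 13 on none. The 13 were ABCA4, ABCA6, ABCA8, ABCA9, ABCA12, ABCB5, ABCB11, ABCC2, ABCC9, ABCC11, ABCC12, ABCG5 and ABCG8, whose signals lay between 1.53 and 56.3. By array, 23 members were above the floor in untreated cells, 27 with romidepsin, 22 with tamoxifen and 28 with the combination. Over all genes the counts were 12159, 12988, 12479 and 13150. ABCB1, ABCB4 and ABCC8 lay above the floor on both arrays with romidepsin and on neither array without it, and ABCD2 passed the floor on the combination array only, at 73.5. The shares of all genes with these patterns were not counted, so no background stands beside them.

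**Figure D1:**
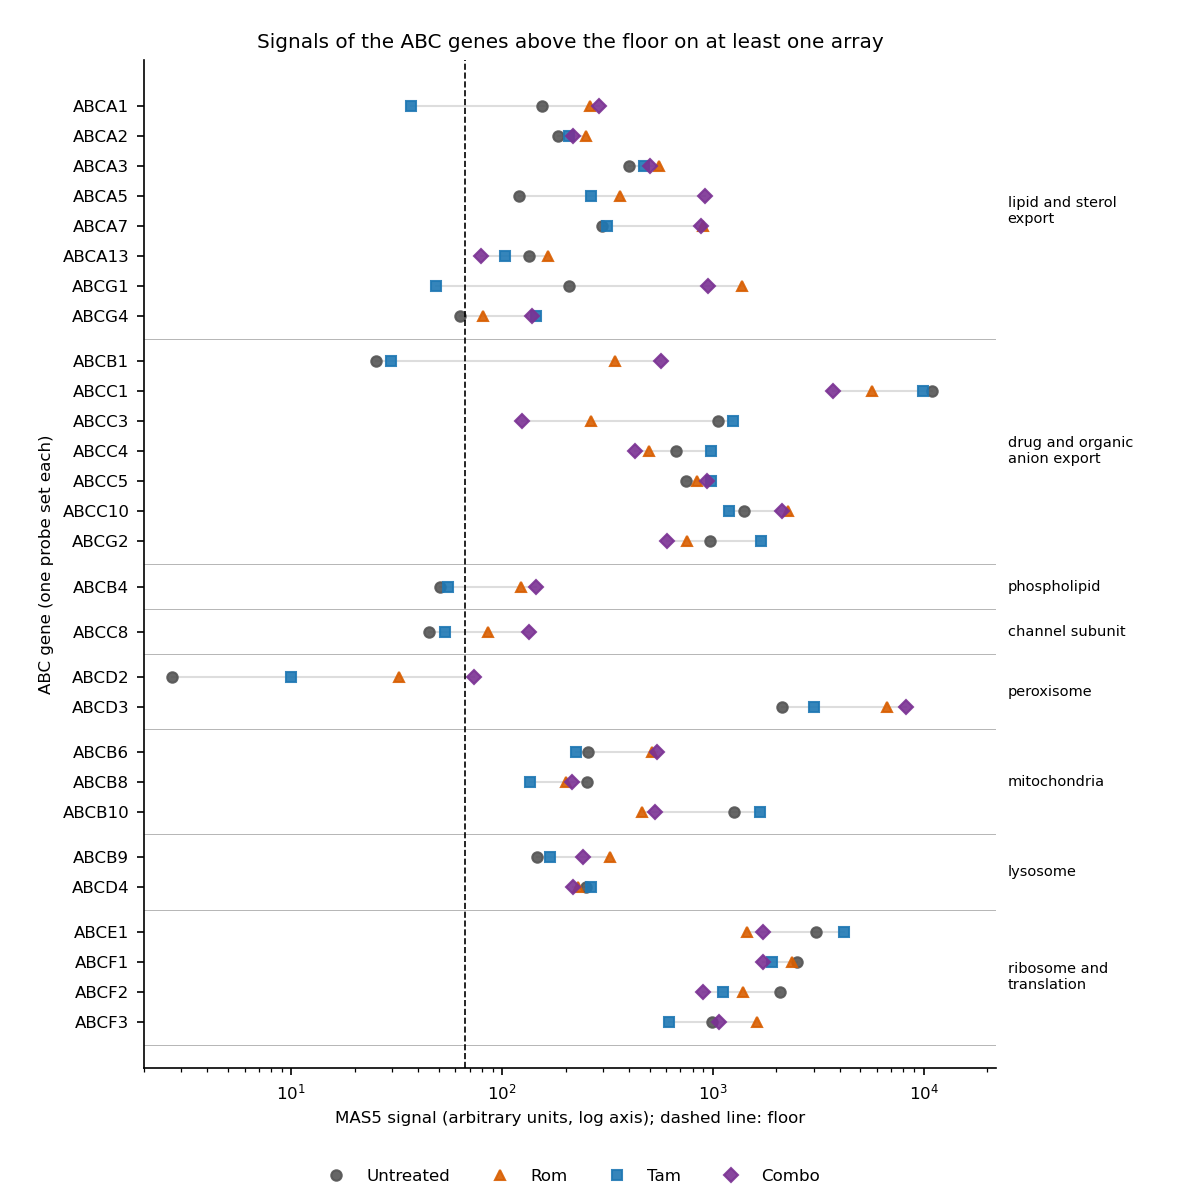
MAS5 signals on a log axis of the 28 ABC genes above the floor (dashed line, 66.4) on at least 1 array, grouped by role, with 1 symbol per array. The symbols of ABCB1 lie at 25.2 and 29.5 without romidepsin and at 343 and 569 with it, and those of ABCC3 lie in the opposite order.

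With romidepsin alone, 7 of the 41 members rose, 3 fell and 17 more were measured with a difference, or a bound on it, under 2-fold. ABCG1, ABCB1, ABCD3, ABCA7, ABCA5, ABCB9 and ABCB6 were the 7 that rose, and ABCC3, ABCB10 and ABCE1 the 3 that fell. Over all 13619 genes measured, 14.3% rose and 9.27% fell, against 25.9% and 11.1% of the 27 measured members. Members at the floor in untreated cells could be measured only by rising, so the members' share of rises is not free of that filter. The median log2 fold was 0.36 over the measured members and 0.06 over all genes, and the members' median is not free of that filter either. With the median over each gene's probe sets the values were 0.18 and 0.06. With the floor at the 75th percentile of non-control signals they were 0.04 and 0.002. With arrays centred on their medians, which moves the median of all genes to -0.11, 5 members rose and 4 fell.

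Romidepsin was also compared in the presence of tamoxifen, by setting the combination array against the tamoxifen array. This pair shares no array with romidepsin against untreated cells. Here 9 members rose and 6 fell of 28 measured, against 14.8% and 11.8% of all genes. ABCB1, ABCB4, ABCC8 and ABCD2 were at the floor with tamoxifen and could be measured only by rising. All of these but ABCD2 are among the rises, so the share of rises is not free of that filter. At least 2-fold rises in both pairs were seen for 6 members, ABCA5, ABCA7, ABCB1, ABCB6, ABCD3 and ABCG1, and falls in both for ABCB10, ABCC3 and ABCE1. These are 22.2% and 11.1% of the 27 members measured in both, while 11.4% and 7.7% of all genes passed the same rule. ABCB1 was measured in both pairs only by rising, so the 22.2% is not free of the filter either. The direction was the same in both pairs for 23 of 27 members, or 85.2%, and for 84.3% of all genes, so the members were near the background in this respect. ABCA13, ABCB8, ABCC5 and ABCG4 differed in direction between the pairs.

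**Figure D2:**
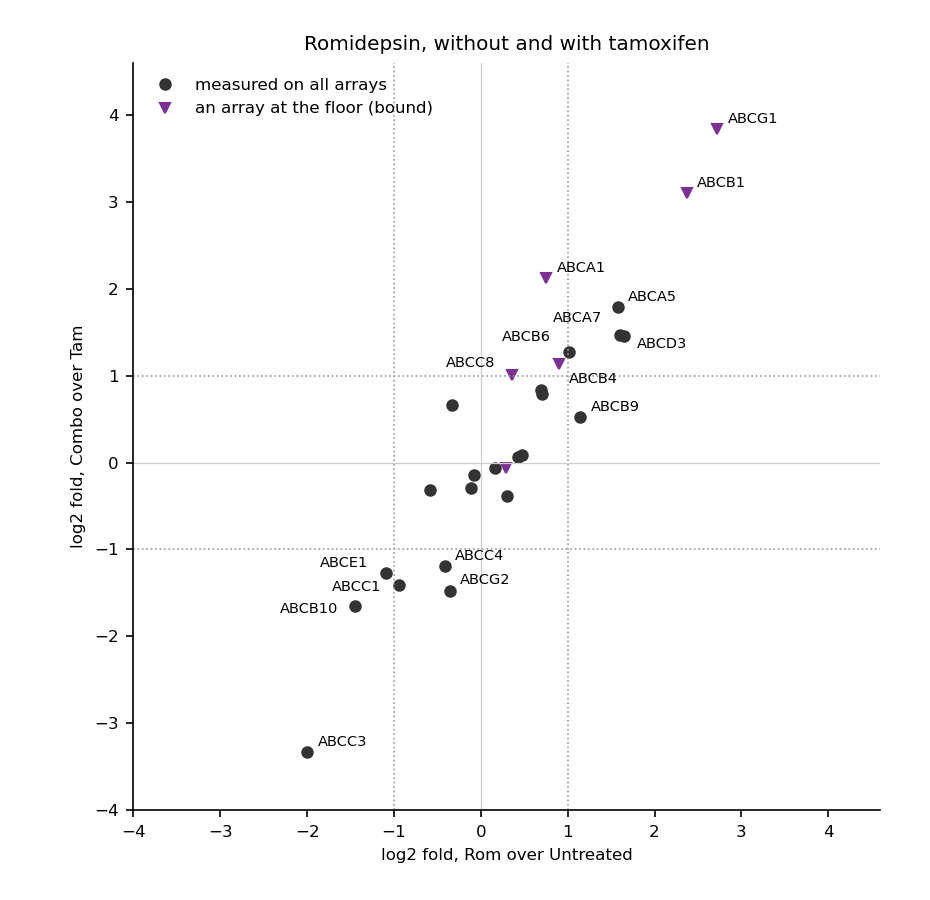
Log2 fold of each measured ABC gene for romidepsin without tamoxifen (horizontal axis) and with it (vertical axis), with dotted lines at 2-fold; triangles mark genes with an array at the floor. ABCG1 and ABCB1 are highest on both axes and ABCC3 is lowest on both.

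Among genes of drug and anion export 7 were measured. With romidepsin alone 1 rose (ABCB1) and 1 fell (ABCC3), against 14.3% and 9.27% of all genes. In the combination over tamoxifen 1 rose (ABCB1) and 4 fell (ABCC1, ABCC3, ABCC4 and ABCG2), against 14.8% and 11.8%. ABCB1 was at the floor on both arrays without romidepsin and could be measured only by rising. ABCC10 was higher in both pairs, by less than 2-fold. ABCB1 encodes P-glycoprotein, the multidrug efflux pump. Its signal was 25.2 in untreated cells, 343 with romidepsin, 29.5 with tamoxifen and 569 with the combination. It was therefore at least 5.17-fold higher with romidepsin than in untreated cells, and at least 8.57-fold higher in the combination than with tamoxifen. The combination was 1.66-fold above romidepsin alone. The second probe set of ABCB1 was below the floor on all 4 arrays. A probe set annotated to both ABCB1 and its chromosome 7 neighbour ABCB4, and so outside the members, read 3.58, 346, 3.70 and 547 in the same order of arrays. ABCB4, the phosphatidylcholine transporter of bile, had signals of 50.8, 124, 55.4 and 145. It was at the floor in untreated cells, so it was at least 1.86-fold higher with romidepsin alone, a bound that does not reach 2-fold, and at least 2.19-fold higher with the combination.

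ABCC3 encodes MRP3, an exporter of glucuronides and bile salts. Its signal was 1055 in untreated cells, 264 with romidepsin, 1243 with tamoxifen and 124 with the combination. It fell 4.0-fold with romidepsin alone, and the combination lay 10.1-fold below tamoxifen, with no overlap between arrays with and without the drug. Of its 5 probe sets 1 was at the floor throughout, and the other 4 were lower with romidepsin, at log2 folds between -2.21 and -1.54. ABCC1 encodes MRP1, which exports glutathione conjugates. Its signal went from 10989 to 5703 with romidepsin, 1.93-fold lower and just within the 2-fold limit. It went from 9858 with tamoxifen to 3716 with the combination, a fall of 2.65-fold. The second probe set of ABCC1 gave log2 folds of -0.71 and -1.07 for the same pairs.

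ABCC4 (MRP4, an exporter of cyclic nucleotides) and ABCG2 (breast cancer resistance protein) were within 2-fold with romidepsin alone and fell where tamoxifen was present. ABCC4 signals were 664, 498, 973 and 425 on the untreated, romidepsin, tamoxifen and combination arrays. Of its other probe sets, 1 was slightly higher with romidepsin alone, at 109 in untreated cells and 117. Those of ABCG2 were 963, 751, 1689 and 607. The tamoxifen array was the highest of the 4 for each gene, and the folds of the combination over it were 2.29-fold lower for ABCC4 and 2.78-fold lower for ABCG2. ABCC10 (MRP7), which exports taxanes, had signals of 1402, 2260, 1189 and 2118, within 2-fold in every comparison. ABCC5, another exporter of cyclic nucleotides, stayed between 747 and 975.

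**Figure D3:**
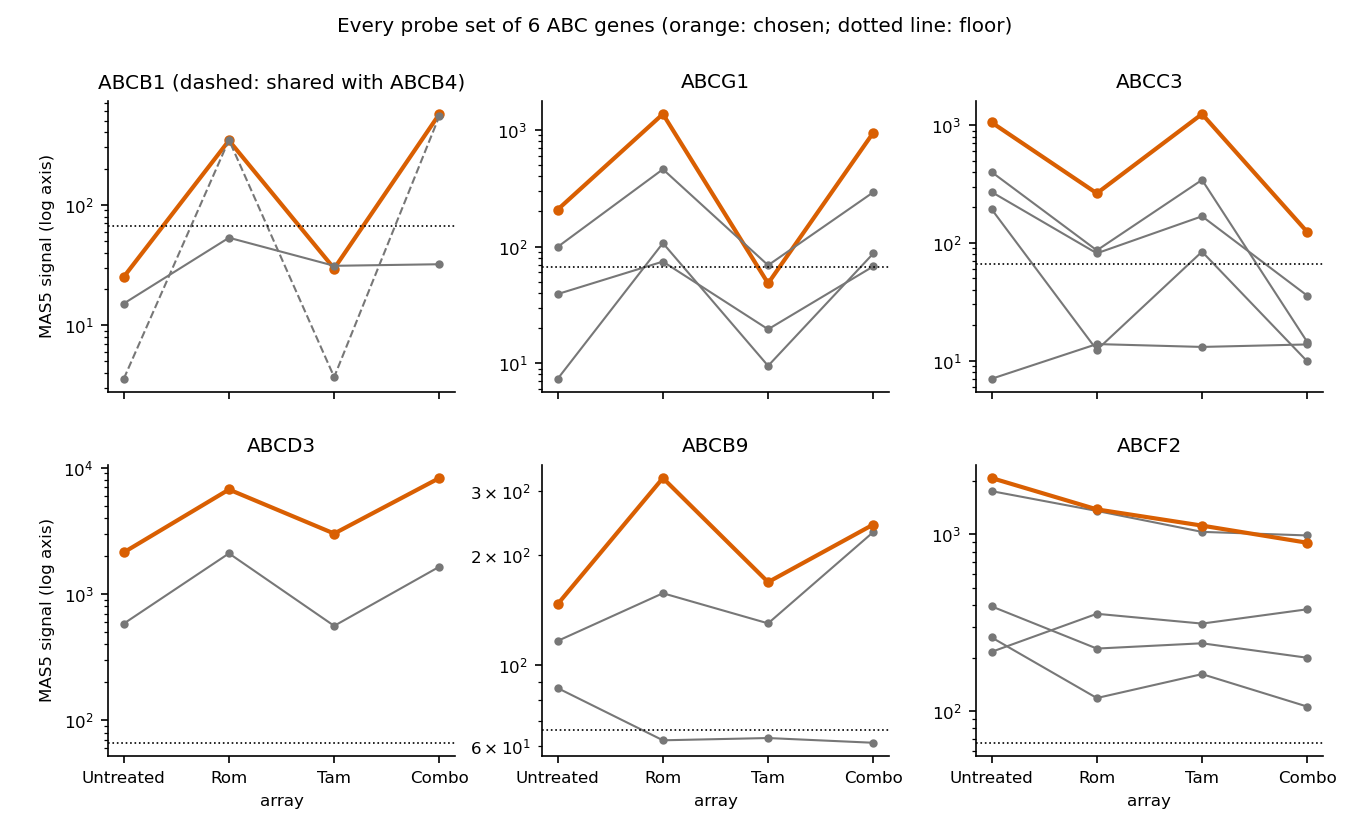
MAS5 signals on log axes of every probe set of ABCB1, ABCG1, ABCC3, ABCD3, ABCB9 and ABCF2 over the 4 arrays, with the chosen probe set in orange, the probe set shared with ABCB4 dashed and the floor dotted. The chosen probe set of ABCG1 peaks with romidepsin, at 1370, and the probe sets of ABCB9 and ABCF2 do not all run the same way.

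Genes of lipid and sterol export included 15 members, of which 8 were measured. With romidepsin 3 rose and 0 fell (14.3% and 9.27% of all genes), with tamoxifen 2 rose and 2 fell (3.7% and 1.07%), and in the combination over untreated cells 4 rose and 0 fell (19.8% and 14.4%). ABCG4, among the rises with tamoxifen and in the combination, was at the floor in untreated cells and could be measured only by rising. ABCG1 passes cellular cholesterol to lipoproteins and is a textbook target of the sterol-sensing LXR receptors. Its signals were 208 in untreated cells, 1370 with romidepsin, 48.4 with tamoxifen and 948 with the combination. It rose 6.60-fold with romidepsin and was at least 14.3-fold higher in the combination than with tamoxifen. A second probe set of ABCG1 gave 99.4, 460, 69.1 and 292, in the same order of arrays. Without probe sets that can match several transcripts only dim ones remained, and the log2 folds were then 0.16 and 0.03.

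ABCA1, which loads cholesterol onto apolipoprotein A-I and is also an LXR target, had signals of 155, 261, 37.0 and 288. It was 1.69-fold higher with romidepsin alone, short of the 2-fold limit, and at least 4.35-fold higher in the combination than with tamoxifen. ABCA7, a phospholipid exporter, read 296, 897, 315 and 874. Both arrays with romidepsin lay near each other and above both without it, with folds of 3.03 and 2.77. ABCA5, a lysosomal member of its subfamily, read 121, 361, 264 and 915. It rose 2.99-fold with romidepsin and 3.46-fold when romidepsin was added to tamoxifen. Its second probe set was below the floor. The chosen probe set of ABCA2 lay between 184 and 249 and that of the surfactant lipid transporter ABCA3 between 398 and 553, both within 2-fold in every comparison. A second probe set of ABCA2 disagreed: it read 164, 186, 82.0 and 199, 2.005-fold lower with tamoxifen than in untreated cells and 2.43-fold higher in the combination than with tamoxifen.

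Organelle members moved in either direction. ABCD3 encodes PMP70, a carrier of fatty acyl-CoA into peroxisomes, and had signals of 2134, 6714, 3006 and 8274. It rose 3.15-fold with romidepsin and 2.75-fold in the combination over tamoxifen, and its second probe set gave log2 folds of 1.85 and 1.56. ABCB10, a transporter of the mitochondrial inner membrane, read 1256.5, 461, 1672 and 530.5. It fell 2.73-fold with romidepsin, and the combination lay 3.15-fold below tamoxifen. The porphyrin transporter ABCB6 read 256, 516, 224 and 542, and its rises of 2.01-fold and 2.42-fold lay close to the limit. The first of these fell short of 2-fold under all 3 other scalings of the arrays. The chosen probe set of ABCB8, another mitochondrial member, lay between 135 and 252 and was within 2-fold throughout. Its second probe set read 187, 137, 118 and 76.4, with log2 folds of -1.29 for the combination over untreated cells and -0.63 for the combination over tamoxifen, against -0.24 and 0.67 on the chosen one.

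ABCB9, which carries peptides into lysosomes, read 147, 325, 169 and 242, and rose 2.21-fold with romidepsin alone. Its 3 probe sets disagreed: the log2 folds were 1.15, 0.43 and -0.38, the last from a signal of 86.4 in untreated cells to the floor. ABCD4, which takes part in the release of cobalamin from lysosomes, lay between 217 and 265. LMBRD1, its partner in cobalamin release, read 667, 1654, 1650 and 2409.

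Of the 4 members that act on ribosomes, ABCE1, which splits ribosomes into subunits after translation, fell with romidepsin. Its signals were 3082, 1447, 4188 and 1731, with the highest value on the tamoxifen array. It fell 2.13-fold with romidepsin, the combination lay 2.42-fold below tamoxifen, and its second probe set gave log2 folds of -0.99 and -1.23. ABCF1, a translation initiation factor, read 2504, 2368, 1903 and 1730, within 2-fold in every comparison. ABCF3 read 990.1, 1611, 618 and 1065, higher in each pair with romidepsin and lower in each with tamoxifen, by less than 2-fold.

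Promoters of 5 of the 7 genes with a window that moved with romidepsin with and without tamoxifen are shown to set rising against falling members: ABCB1, ABCA7 and ABCD3 rose, and ABCB10 and ABCE1 fell. ABCA5 and ABCB6, which also rose, are described by their boxes alone, to keep the printed sequence short. The window of ABCB1 lies at the outermost annotated start of the gene, which may not be the start these cells use. Each sequence is from RefSeq (GRCh38.p14) and runs 5′ to 3′ on the gene's own strand, from 250 bases before the gene's start to 50 after it. Of the 41 members 33 had such a window; ABCA4, ABCA8, ABCB4, ABCB5, ABCC1, ABCC3, ABCC8 and ABCG1 had none. Capitals mark the GC box GGGCGG and the CCAAT box CCAAT on either strand; no match of the one overlaps a match of the other. The windows are chr7:87713246-87713545 on the minus strand for ABCB1, chr19:1039857-1040156 on the plus strand for ABCA7, chr1:94418139-94418438 on the plus strand for ABCD3, chr1:229558658-229558957 on the minus strand for ABCB10 and chr4:145098061-145098360 on the plus strand for ABCE1.
ABCB1: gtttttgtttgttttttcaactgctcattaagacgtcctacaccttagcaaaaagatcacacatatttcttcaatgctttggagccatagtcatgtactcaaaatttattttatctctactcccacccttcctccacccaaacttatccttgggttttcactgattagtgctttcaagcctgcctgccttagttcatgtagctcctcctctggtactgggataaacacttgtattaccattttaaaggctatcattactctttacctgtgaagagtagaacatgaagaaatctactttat
ABCA7: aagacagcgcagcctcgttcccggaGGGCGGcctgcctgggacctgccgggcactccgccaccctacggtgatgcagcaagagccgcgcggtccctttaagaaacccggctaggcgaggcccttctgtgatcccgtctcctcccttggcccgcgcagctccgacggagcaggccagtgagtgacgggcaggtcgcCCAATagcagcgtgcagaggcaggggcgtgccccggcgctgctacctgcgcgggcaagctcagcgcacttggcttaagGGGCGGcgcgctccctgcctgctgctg
ABCD3: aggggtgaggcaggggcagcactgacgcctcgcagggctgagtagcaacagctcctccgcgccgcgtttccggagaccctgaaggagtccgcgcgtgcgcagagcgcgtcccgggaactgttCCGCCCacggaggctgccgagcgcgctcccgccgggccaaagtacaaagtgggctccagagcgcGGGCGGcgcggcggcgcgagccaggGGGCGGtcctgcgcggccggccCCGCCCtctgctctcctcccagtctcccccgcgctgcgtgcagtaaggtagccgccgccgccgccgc
ABCB10: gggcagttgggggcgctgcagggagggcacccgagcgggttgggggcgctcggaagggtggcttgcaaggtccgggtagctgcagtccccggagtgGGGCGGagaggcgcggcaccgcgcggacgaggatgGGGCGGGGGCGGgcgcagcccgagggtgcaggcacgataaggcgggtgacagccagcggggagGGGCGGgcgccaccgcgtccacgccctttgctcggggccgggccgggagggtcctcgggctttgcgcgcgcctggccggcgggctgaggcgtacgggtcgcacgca
ABCE1: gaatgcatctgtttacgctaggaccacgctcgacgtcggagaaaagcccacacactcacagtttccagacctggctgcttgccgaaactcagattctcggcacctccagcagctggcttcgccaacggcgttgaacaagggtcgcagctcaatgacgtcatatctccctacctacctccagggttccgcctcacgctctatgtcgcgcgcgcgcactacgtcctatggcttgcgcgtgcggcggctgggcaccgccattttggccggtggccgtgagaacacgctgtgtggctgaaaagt

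ABCD3, which rose, and ABCB10, which fell, hold 4 GC boxes each, and ABCB1, which rose, and ABCE1, which fell, hold 0. ABCA7 holds 2 GC boxes and 1 CCAAT box, ABCB6 likewise 2 and 1, and ABCA5 1 GC box. The GC content was 37.7% for ABCB1, 70% for ABCA7, 75% for ABCD3, 77.3% for ABCB10 and 59.7% for ABCE1, with a median of 58.3% over all 27305 windows. Over those windows 44.6% hold a GC box and 35.7% a CCAAT box, against 18 and 6 of the 33 member windows, or 54.5% and 18.2%. Numbers of GC boxes ranged from 0 to 4 both among the 5 genes that rose and among the 2 that fell. Among those that rose only ABCB1 held 0, and its window may not be at the start these cells use. The matches describe letters in these windows only.

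With tamoxifen alone 4 of the 24 measured members passed the 2-fold limit. ABCA5 and ABCG4 rose and ABCA1 and ABCG1 fell, 8.33% in each direction, while over all genes 3.7% rose and 1.07% fell. ABCG4 was at the floor in untreated cells and could be measured only by rising. ABCA5 went from 121 to 264, 2.19-fold higher. ABCG4, a sterol transporter related to ABCG1, read 62.8, 80.9, 145 and 139 on the untreated, romidepsin, tamoxifen and combination arrays, and was at least 2.18-fold higher with tamoxifen. The falls were those of ABCA1 and ABCG1. ABCA1 went from 155 to below the floor, at least 2.33-fold lower, and ABCG1 from 208 to below the floor, at least 3.13-fold lower. A second probe set of ABCA1 went from 136 to 60.8, and that of ABCG1 from 99.4 to 69.1. Counts in each direction depended on the scaling of the arrays: 1 rose and 4 fell with arrays centred on medians, 1 rose and 2 fell after quantile normalization, and 3 rose and 2 fell with spike-in scaling, which moves the median of all genes from 0.01 to 0.33. The ABCA5 rise was lost under the first 2 of these.

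Tamoxifen on top of romidepsin was examined by setting the combination against romidepsin, which shares no array with tamoxifen against untreated cells. ABCA5 rose again, from 361 to 915, 2.53-fold, and was the 1 member of 24 measured in both pairs to rise in both; 1.33% of all genes did. ABCC3 fell from 264 to 124, 2.13-fold lower, and ABCA13 from 164 to 79.6, 2.07-fold lower. ABCA13 read 134 in untreated cells and 104 with tamoxifen. Its second probe set above the floor with romidepsin, at the floor in the combination, gave a log2 fold of -0.13. Over all genes 4.07% rose and 2.27% fell. With spike-in scaling, which moves the median log2 fold of all genes here from -0.03 to 0.25, 3 members rose and 0 fell. No member fell in both pairs, against 0.194% of all genes. The direction of the tamoxifen fold was the same in both pairs for 13 of 24 members, or 54.2%, and for 73.2% of all genes.

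**Figure D4:**
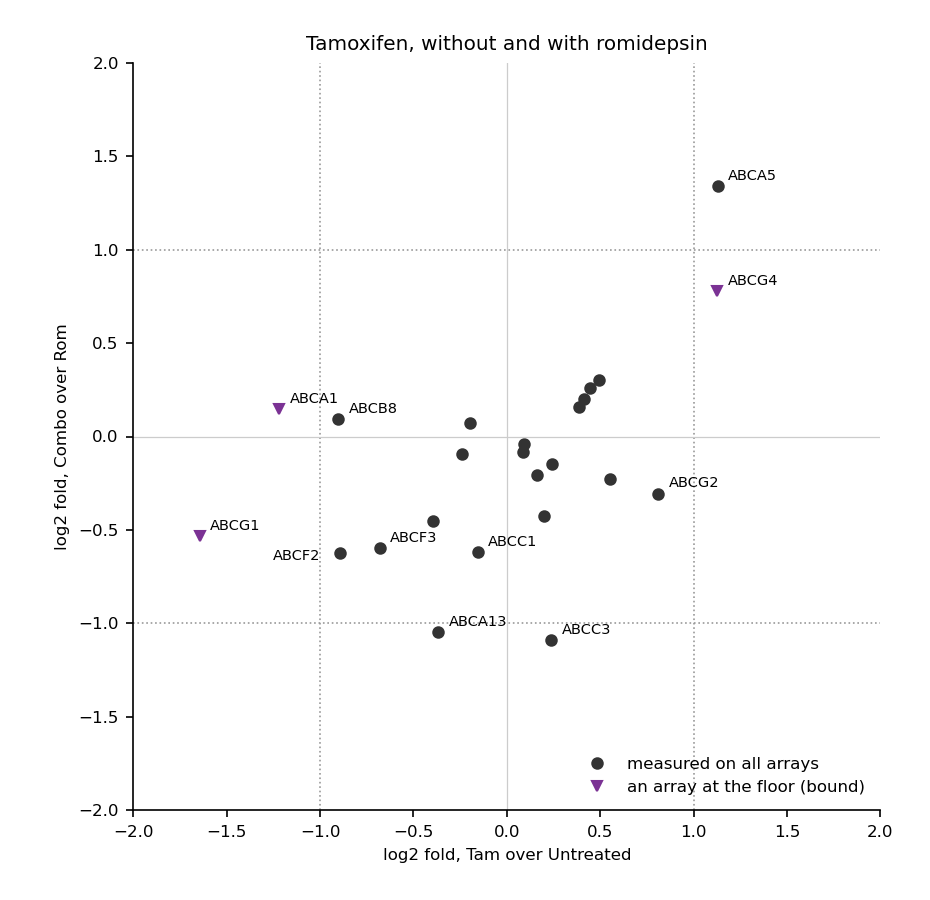
Log2 fold of each ABC gene measured in both pairs for tamoxifen without romidepsin (horizontal axis) and with it (vertical axis), with dotted lines at 2-fold; triangles mark genes with an array at the floor. ABCA5 is the 1 gene beyond both upper limits, and ABCA1 and ABCG1 lie left of the lower limit on the horizontal axis only.

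In the combination over untreated cells 9 members rose and 4 fell of 28 measured, against 19.8% and 14.4% of all genes. ABCB1, ABCB4, ABCC8, ABCD2 and ABCG4 were at the floor in untreated cells and could be measured only by rising. All of these but ABCD2 are among the rises, so the share of rises is not free of that filter. ABCA5 rose 7.57-fold, ABCG1 4.57-fold, ABCD3 3.88-fold, ABCA7 2.95-fold and ABCB6 2.12-fold, and ABCB1 was at least 8.57-fold higher. ABCC8, the sulfonylurea receptor SUR1 of potassium channels, was at 45.0 and 53.6 without romidepsin, and at 85.2 and 134 with it. It was at least 2.01-fold higher in the combination, at the limit of a rise. ABCG4 rose at least 2.09-fold and ABCB4 was given above. ABCC3 was 8.53-fold lower, ABCC1 2.96-fold lower, ABCB10 2.37-fold lower and ABCF2, an ATPase of the F subfamily, 2.32-fold lower. ABCF2 read 2083, 1385, 1121 and 897, but 1 of its 5 probe sets, at 217 in untreated cells and 377 in the combination, moved the other way. The split was 5 higher and 6 lower with arrays centred on medians, 5 of each after quantile normalization, and 11 higher and 2 lower with spike-in scaling. These scalings move the median log2 fold of all genes from 0.09 to -0.17, -0.01 and 0.34, in that order.

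The combination was set against the sum of both drugs' log2 folds, as a description, with no test. Of the 28 members above the floor on at least 1 array, 2 departed upwards and 2 downwards by at least 1 log2 unit, against 1.89% and 2.61% of all genes. ABCA1 lay 1.37 above the sum and ABCG1 1.11 above it; for both the tamoxifen array was at the floor, so these values depend on it. A second probe set of ABCA1 gave 0.90, and that of ABCG1, above the floor on all 4 arrays, -0.13. ABCC3 lay at -1.33. Its other probe sets did not repeat this: those at the floor on the combination array alone gave -0.16 and 0.39, and that at the floor on both arrays with romidepsin 1.20. ABCG2, with a single probe set, lay at -1.12, and ABCA5 at 0.21. ABCB1 was at the floor on the untreated and tamoxifen arrays, so its departure would only restate the fold of the combination over romidepsin and is not given.

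Genes that regulate ABC genes or work beside them were described from lists. Of 24 nuclear receptors and other regulators 19 were measured with romidepsin, 3 rose and 4 fell (14.3% and 9.27% of all genes). NR1H3, which encodes the receptor LXR alpha, read 750, 374, 383 and 160, lower on each treated array. PPARG read 1609, 600, 1963 and 421, and PPARA 261, 804, 303 and 932. KEAP1, the inhibitor of the oxidative stress factor NRF2, read 3259, 734, 1946 and 374. Of 10 LXR targets other than ABC genes, 2 rose and 3 fell with romidepsin, against the same shares of all genes. NR1H3 is in both lists and is among the 3 that fell. With tamoxifen 9 of the targets were measured, and SMPDL3A rose and 0 fell (3.7% and 1.07% of all genes). MYLIP, a ligase that degrades the LDL receptor, read 472, 1574, 318 and 1790, and the phospholipid enzyme LPCAT3 625, 2199, 575 and 1430. The apolipoprotein gene APOC1 read 915, 409, 1023 and 288. The part of the LXR receptors in the ABCG1 and ABCA1 signals was not tested.

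Over all genes 14.3% rose and 9.27% fell with romidepsin. Of 12 sterol handling partners 8 were measured with romidepsin, and 4 rose and 0 fell; 1 of the 4, CYP27A1, was at the floor in untreated cells and measured only because it rose. NPC1, which releases cholesterol from lysosomes, read 1241, 4008, 1595 and 5459, and the sterol carrier STARD4 554, 1851, 2245 and 4150. Of 18 genes of uptake and drug handling 11 were measured and 1 rose and 1 fell with romidepsin: the P450 reductase POR read 903, 2568, 842 and 2356, and the uptake carrier SLCO1B3 215, 61.0, 486 and 109. Of 20 partners of organelle ABC proteins 17 were measured, with LMBRD1 rising and the cobalamin chaperone MMACHC falling, from 773 to 377. PEX3, which inserts peroxisomal membrane proteins, read 1111, 1980, 1253 and 2560. Relatives whose symbols lack the ABC prefix were CFTR, below the floor on all 4 arrays, and the peptide transporter subunits TAP1 and TAP2. TAP2 read 938, 459, 504 and 263, and TAP1 1107, 963, 950.1 and 598.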

How the data were processed

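Total RNA was hybridized as biotin-labelled cRNA made from 100 ng of RNA, per the labels' protocols. The values the authors deposited are linear intensities, 1 per probe set. The submitters' processing notes name MAS5 for them, with no version or settings. MAS5 scales each array on its own, so the bulk of the signal is taken as equal in all samples. Scanner files were not used here. Columns of other samples numbered 0.

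Probe sets were named from the platform annotation, and Entrez IDs matched to RefSeq (GRCh38.p14) changed 0 member symbols. Of several probe sets of a gene, that with the largest mean log2 signal stood for it. Signals below the median of non-control signals were set to it. Folds were taken between single arrays in 5 comparisons, with 2-fold as the limit. Signals are given for each member past that limit in any comparison, and probe sets that disagree are named where they change what is said of a member. A few further members were chosen after their values were seen. Members, lists and tests were chosen with earlier results of these data known. No test was made: with 1 array per condition, an additive fit of both drugs has a single residual that also holds their interaction. The number of arrays limits the precision. Steps were tested on simulated data. Python 3.11.15, numpy 2.4.6, pandas 2.3.3 and matplotlib 3.10.9 were used.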

Additional observations from a re-analysis of the deposited data

Results flagged for a closer look

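For 3 members the tamoxifen fold had opposite signs without and with romidepsin and the log2 folds differed by at least 1. The difference was not tested, with 1 array per condition. The share of all genes passing this rule was not counted, so the 3 members have no background beside them. ABCA1 had a log2 fold of -1.22 without romidepsin and 0.15 with it, a difference of 1.37. The first of these is a bound, as the tamoxifen array was at the floor. A second probe set of ABCA1, also at the floor with tamoxifen, gave -1.03 and -0.13. These have the same sign and differ by 0.90, so that probe set does not pass the rule. ABCC3 had 0.24 and -1.09, a difference of -1.33; its other probe sets above the floor were lower with tamoxifen also without romidepsin, at log2 folds between -1.20 and -0.22. ABCG2 had 0.81 and -0.31, a difference of -1.12, on its single probe set.

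The probe set annotated to both ABCB4 and ABCB1, which is in no comparison of the members, read 346 with romidepsin and 547 with the combination, above 3.58 in untreated cells.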

How the results depend on the processing

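Of 45 calls of 2-fold differences over the 5 comparisons, 20 were kept under every other scaling, floor and choice of probe sets that could be run, and 25 were lost under at least 1. A setting under which a gene was not measured was skipped and not counted as a loss. ABCB1 with romidepsin alone and ABCG4 with tamoxifen alone thus count as kept, though unmeasured with the floor at the 75th percentile. ABCA7, ABCB10, ABCC3 and ABCE1 were not measured without probe sets that can match several transcripts. The calls of ABCA7, ABCC1, ABCD3, ABCC4, ABCE1 and ABCG2 were among those kept. Those of ABCB10 were kept except in the combination over untreated cells when scaled to the spike-in controls. The number of members called with romidepsin alone was 10, and it was 6 with the floor at the 75th percentile, 4 without probe sets that can match several transcripts, 16 at 1.5-fold and 5 at 3-fold. For tamoxifen alone it was 4, and 0 with the higher floor, 2 with the median over probe sets, 8 at 1.5-fold and 1 at 3-fold. For the combination over untreated cells it was 13, and 8 with the higher floor, 8 with the median over probe sets, 6 without multi-transcript probe sets, 20 at 1.5-fold and 5 at 3-fold. For the combination over romidepsin it was 3, and 6 with the floor at the 25th percentile, 1 with the higher floor, 0 with the median over probe sets, 1 without multi-transcript probe sets, 9 at 1.5-fold and 0 at 3-fold. For the combination over tamoxifen it was 15, and 8 without multi-transcript probe sets and 6 at 3-fold. Departures of at least 1 log2 unit numbered 4, and 8 with the lower floor and 2 with the higher floor, with the median over probe sets and without multi-transcript probe sets. Leaving those probe sets out tested 34 of the 41 members and turned the log2 fold of ABCB9 with romidepsin to -0.38 and that of ABCF2 in the combination over untreated cells to 0.80. The cause of the other changes was not tested. No paired analysis was possible, with 1 array per condition. The pairs of arrays with and without each drug are set side by side in the text.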
